A study of Rattus norvegicus with 12 samples.

Results

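ND7/23 cells, a hybrid line made by fusing rat dorsal root ganglion neurons with mouse neuroblastoma cells, were examined for the genes that steer growing axons. The genes were the ligands and receptors of the semaphorin, ephrin, Slit and netrin systems, chosen by gene symbol alone, and 66 of the 21556 genes in the table matched. The 12 libraries formed 4 groups of 3. Cells were left untreated (control) or were treated for 6 h with menthol at 100 μM, with Wnt3a at 100 ng/ml, or with both at these doses. Menthol activates the cold receptor TRPM8, and Wnt3a switches on canonical Wnt signalling through β-catenin. All groups were cultures of this single hybrid line, and the labels do not say whether the replicates were separate cultures, so the p-values measure only the spread between these libraries. Between 36914722 and 38837023 reads fell on genes per library, and the correlation between any pair of libraries lay between 0.9942 and 0.9962. By gene length, the first and second Wnt3a libraries lay apart from the control libraries. Where leaving out a single library changed a call of a member, this is given below.

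Axon guidance proteins are surface-bound or secreted cues and their receptors, which attract or repel the growth cone. Class 3 semaphorins are secreted and act through neuropilins, which bind the ligand, and plexins, which signal into the cell. Semaphorins of the other vertebrate classes are anchored in the membrane and mostly bind plexins directly. Ephrins are anchored in the membrane too, and bind Eph receptor tyrosine kinases on the neighbouring cell. Slits act through Robo receptors, and netrins through the Dcc and Unc5 receptors. Sensory axons of the dorsal root ganglion meet all of these cues on their way to the spinal cord and the skin.

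The label of a sensory neuron line was met by few of the neuronal markers. Of 20 sensory neuron genes, 17 had a mean FPKM (fragments per length of gene and per number of fragments mapped) below 0.5 over the 12 libraries, and Elavl4 and Scn10a stayed at 3 reads or fewer in every library. Uchl1 (98.7 FPKM in control), Isl1 (11.2 FPKM) and Nefh (5.83 FPKM) were the 3 above that level. Of 10 fibroblast or stroma genes 6 were above it, among them Thy1 at 145 FPKM, which neurons also make, and Col1a2 at 123 FPKM. Glial, skeletal muscle and endothelial markers were mostly low, with 2 of 7, 2 of 8 and 1 of 5 above 0.5 FPKM, and their summed levels stayed between 1.42 and 4.37 FPKM in all libraries. The summed stromal markers were at 286 to 293 FPKM in control, 265 to 270 FPKM with menthol, 276 to 280 FPKM with Wnt3a and 263 to 270 FPKM with both, and the summed neuronal markers at 112 to 120, 117 to 129, 121 to 128 and 121 to 134 FPKM. Their part in the values below was not tested. The table uses rat gene names, and how reads of mouse origin were assigned is not given in the sources used here. A gene transcribed mainly from the mouse chromosomes of the hybrid could be undercounted here, so low values of markers and guidance genes alike are levels in this rat annotation and do not show that the cells lack the transcript.

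Of the 66 axon guidance genes, 34 had a mean of at least 0.5 FPKM and were tested. Another 23 lay below that mean with up to 224 reads in a library, and 9 stayed at 3 reads or fewer in every library (Epha1, Epha6, Epha8, Ephb1, Plxnb3, Sema3e, Sema5a, Sema5b and Sema6d). Dcc, Robo4 and Unc5d, which belong to the same families and which the choice by symbol covers, had no match in the deposited values. Their levels are not known here. In all, 45 of the 66 were above 3 reads in every library. Of the 34 tested genes 12 reached a mean of 10 FPKM, 17 lay between 1 and 10 FPKM, and 5 below 1 FPKM.

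**Figure D1:**
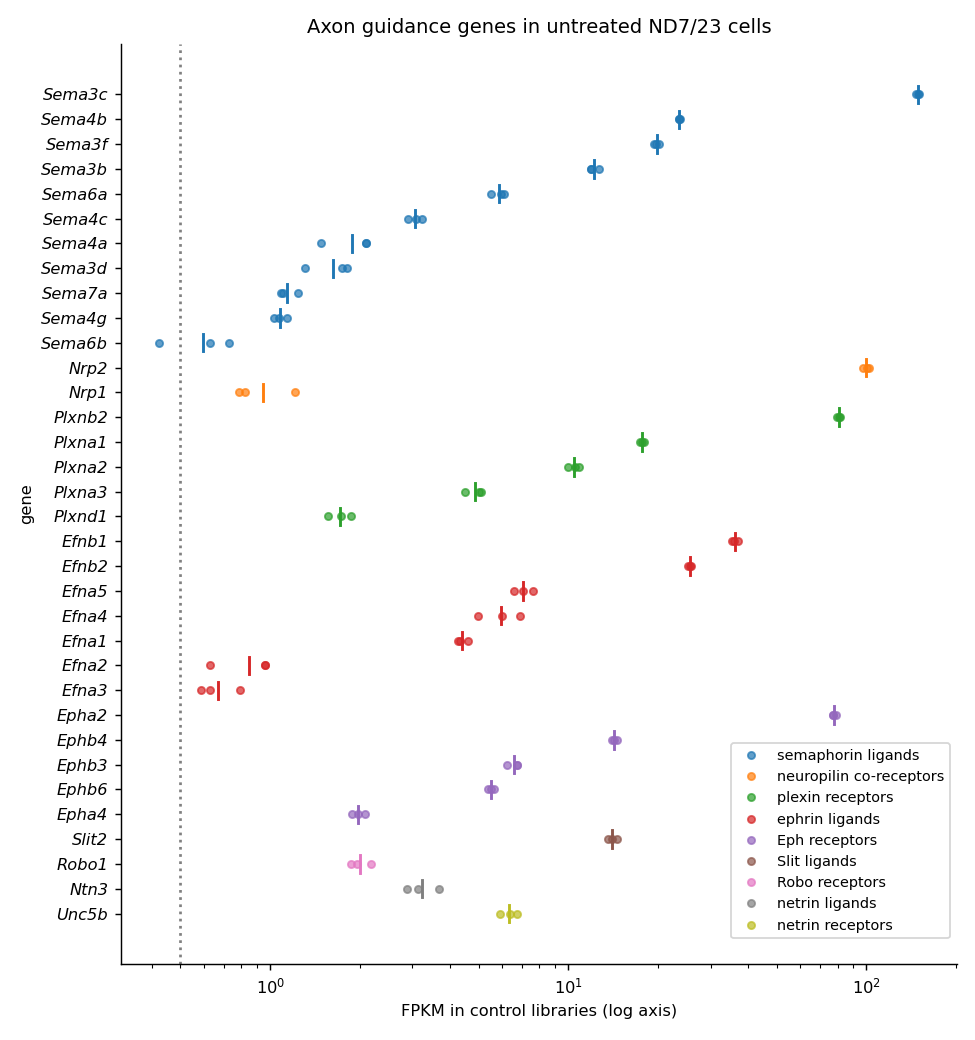
FPKM of the 34 tested axon guidance genes in the 3 control libraries (points, log axis) with their mean (bars), grouped by family; the dotted line marks 0.5 FPKM. Sema3c, Nrp2, Plxnb2 and Epha2 sit between 77.0 and 151 FPKM and all others below 40 FPKM.

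Semaphorin transcripts were dominated by a single secreted ligand. Sema3c, a class 3 semaphorin known for its role in patterning the cardiac outflow tract and in axon growth, had 149 ± 1.93 FPKM in control (SD, n = 3) and ranked 450th of all genes. It made up 67.5 ± 0.14% of the summed FPKM of the 20 semaphorins. Sema3f, the classical repellent ligand of neuropilin 2, had 19.8 ± 0.42 FPKM, Sema3b 12.2 ± 0.46 FPKM and Sema3d 1.62 ± 0.27 FPKM. Sema3a, the classical repellent of sensory axons, was low at 0.143 ± 0.019 FPKM, and Sema3g lay at 0.134 FPKM. Among the membrane-anchored class 4 semaphorins, Sema4b was highest at 23.6 ± 0.15 FPKM, followed by Sema4c (3.07 ± 0.17 FPKM), Sema4a (1.89 ± 0.35 FPKM) and Sema4g (1.08 ± 0.056 FPKM). Sema4d, the best-known ligand of plexin B1, stood at 0.329 FPKM and Sema4f at 0.0212 FPKM. Sema6a reached 5.84 ± 0.31 FPKM, Sema6b 0.594 ± 0.16 FPKM, and Sema6c 0.160 FPKM. Sema7a, which is tied to the membrane by a lipid anchor, had 1.14 ± 0.083 FPKM.

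The receptor side of the class 3 semaphorins was just as uneven. Nrp2, the co-receptor preferred by Sema3c and Sema3f, had 100.0 ± 2.42 FPKM in control and Nrp1, the co-receptor of Sema3a, 0.942 ± 0.23 FPKM, so that Nrp2 took 99.1 ± 0.25% of the neuropilin FPKM. Plxnb2 had 80.6 ± 0.93 FPKM and held 69.9 ± 0.37% of the summed plexin FPKM. Plxna1 (17.7 ± 0.25 FPKM), Plxna2 (10.5 ± 0.47 FPKM) and Plxna3 (4.87 ± 0.31 FPKM), the signalling partners of the neuropilins, followed, with Plxnd1 at 1.72 ± 0.15 FPKM. Plxna4, Plxnb1, Plxnb3 and Plxnc1 had between 0 and 17 reads in any library. Set against known partners, Sema3b, Sema3c and Sema3f all had their co-receptor Nrp2 and at least Plxna1 to Plxna3 above 0.5 FPKM. Sema7a was above that level without its receptor Plxnc1. Plxnd1 was above it without its ligand Sema3e, but it is also a listed partner of Sema3b, Sema3c and Sema3f with Nrp2.

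In the ephrin system both membrane classes of ligand were present, but the A-type receptors came down to Epha2. Efnb1 (36.1 ± 0.84 FPKM) and Efnb2 (25.5 ± 0.32 FPKM), the transmembrane ephrins, were the most abundant ligands, and Efnb3 stood at 0.162 FPKM. All 5 lipid-anchored A-type ephrins passed 0.5 FPKM: Efna5 (7.06 ± 0.53 FPKM), Efna4 (5.94 ± 0.93 FPKM), Efna1 (4.41 ± 0.19 FPKM), Efna2 (0.851 ± 0.19 FPKM) and Efna3 (0.669 ± 0.11 FPKM). Epha2, a receptor known from epithelial and tumour cells, had 77.7 ± 1.04 FPKM and held 97.4 ± 0.16% of the FPKM of the 9 A-type receptors. Epha4, which binds ephrins of both types, had 1.97 ± 0.095 FPKM. The other 7 A-type receptors had no more than 23 reads in any library. Of the B-type receptors Ephb4 (14.3 ± 0.32 FPKM), Ephb3 (6.56 ± 0.30 FPKM) and Ephb6 (5.50 ± 0.14 FPKM), whose kinase domain is inactive, were tested, whereas Ephb1 and Ephb2 had 6 reads or fewer in any library.

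Within the set chosen by symbol, the Slit and netrin systems each had a single ligand and a single receptor above 0.5 FPKM. Neogenin (Neo1), which that set leaves out and the list of other receptors holds, had 10.7 FPKM in control. Slit2 had 14.0 ± 0.48 FPKM and its receptor Robo1 2.0 ± 0.17 FPKM, while Slit1, Slit3, Robo2 and Robo3 had at most 33 reads in a library. Ntn3 had 3.23 ± 0.42 FPKM, and Ntn1, the founding member of the netrins, at most 7 reads. Unc5b had 6.34 ± 0.43 FPKM, Unc5c 0.443 ± 0.043 FPKM and Unc5a at most 9 reads. Ntn4 (0.199 FPKM) and Ntn5 (0.0888 FPKM) were low in control.

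Promoter sequences are shown for 3 of the 4 most abundant members, because Epha2 and Sema3c were the only tested members to hold a searched motif and Nrp2 had the smallest adjusted p for Wnt3a. The sequences are those of RefSeq (build GRCr8), from 250 bases before to 50 bases after the transcription start. Both strands were searched for the TCF/LEF core, through which Wnt/β-catenin signalling acts on genes (CTTTGAA or CTTTGAT), and for the cyclic AMP response element TGACGTCA; these motifs share no matched base here, and matches are in capitals. Epha2 is at chr5:158888379-158888678 on the plus strand, Nrp2 at chr9:71617004-71617303 on the plus strand and Sema3c at chr4:18699578-18699877 on the minus strand.
Epha2: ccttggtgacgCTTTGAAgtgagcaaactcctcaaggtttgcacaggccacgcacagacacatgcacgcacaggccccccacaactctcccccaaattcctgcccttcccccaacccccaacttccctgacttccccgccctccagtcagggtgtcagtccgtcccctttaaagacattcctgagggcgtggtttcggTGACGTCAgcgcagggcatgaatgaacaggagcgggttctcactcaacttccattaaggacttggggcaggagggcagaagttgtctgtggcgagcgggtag
Nrp2: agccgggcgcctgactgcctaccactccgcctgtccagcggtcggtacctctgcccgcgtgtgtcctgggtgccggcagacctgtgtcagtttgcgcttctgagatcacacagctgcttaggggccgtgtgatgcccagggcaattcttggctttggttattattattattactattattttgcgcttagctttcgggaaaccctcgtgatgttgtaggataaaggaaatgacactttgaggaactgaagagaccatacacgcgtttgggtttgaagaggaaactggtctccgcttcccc
Sema3c: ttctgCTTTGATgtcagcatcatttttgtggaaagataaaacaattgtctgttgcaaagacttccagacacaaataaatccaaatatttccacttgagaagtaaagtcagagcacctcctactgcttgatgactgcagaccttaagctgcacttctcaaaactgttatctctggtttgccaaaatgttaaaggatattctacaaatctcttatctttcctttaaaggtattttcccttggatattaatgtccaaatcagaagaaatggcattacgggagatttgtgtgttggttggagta
In the Epha2 promoter the TCF/LEF core began 239 bases and the cyclic AMP element 52 bases before the start, and in Sema3c the core began 245 bases before it. Nrp2 held neither. Of the 34 tested genes 28 had a promoter in the table, and 2 of these held a TCF/LEF core against 8.73% of 33469 rat promoters of this length, and 1 the cyclic AMP element against 1.83%. These matches are descriptions of letters and not binding sites.

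Menthol alone, which asks what the TRPM8 agonist does to these genes, left each of the 34 within 2-fold of control by its 95% confidence interval. None passed an adjusted p of 0.05 (limma on log2(FPKM + 0.1), Benjamini-Hochberg over all 11451 tested genes), where 0.105% of all genes did. At an unadjusted p under 0.05 there were 3 (8.82%), Efnb1, Sema3f and Epha4, all lower, against 9.34% of all genes (517 higher and 552 lower). The point estimates of 31 of the 34 lay below 0, with a median log2 fold change of -0.06, against a median of -0.0016 over all tested genes, of which 49.1% were higher.

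Efnb1, a transmembrane ephrin that also signals backwards into its own cell, was read at 35.4, 36.0 and 37.0 FPKM in control and at 33.4, 34.0 and 33.2 FPKM with menthol. The groups did not overlap, and the log2 fold change was -0.11 ± 0.03 (SE; limma adjusted p = 0.348). How often groups do not overlap over all tested genes was not counted, here and below. In RNA from whole cultures, fewer cells with a transcript and less of it per cell cannot be told apart. Sema3f had 19.4, 19.7 and 20.2 FPKM in control and 18.2, 18.0 and 18.0 FPKM with menthol, with a log2 fold change of -0.13 ± 0.05 (limma adjusted p = 0.488). Epha4 had 1.97, 1.88 and 2.07 FPKM in control and 1.78, 1.59 and 1.62 FPKM with menthol, with a log2 fold change of -0.23 ± 0.11 (limma adjusted p = 0.527). These differences were small, and none held after correction for the number of genes, also by limma voom on the read counts.

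Wnt3a alone, which asks what the Wnt ligand does, gave its smallest p-values among the receptors. None of the 34 passed the adjusted p of 0.05, against 0.437% of all tested genes. At an unadjusted p under 0.05 there were 9 (26.5%), all lower than control, against 15.1% of all genes, of which 936 were higher and 791 lower. The direction over all genes depended on the setting: limma voom gave 872 higher and 974 lower, and removal of the gene length trend (below) 655 and 770. These 9 were the co-receptor Nrp2, the plexins Plxna1, Plxna2 and Plxnb2, the receptors Epha2 and Epha4, and the ligands Sema6a, Sema3b and Efnb2. Of the 14 tested receptors and co-receptors 6 were among them and of the 20 ligands 3. The median log2 fold change was -0.07 over the 34 and 0.00 over all tested genes.

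Nrp2 was read at 100.2, 102 and 97.4 FPKM in control and at 86.4, 85.2 and 92.2 FPKM with Wnt3a. Every Wnt3a library was below every control library, with a log2 fold change of -0.19 ± 0.04 (95% CI -0.27 to -0.10; limma adjusted p = 0.0770). Epha2 had 78.9, 77.2 and 77.0 FPKM in control and 71.6, 67.9 and 73.4 FPKM with Wnt3a, again with no overlap and a log2 fold change of -0.13 ± 0.03 (limma adjusted p = 0.0810). Plxna2, which binds Sema6a directly and serves class 3 semaphorins with a neuropilin, had 10.5, 10.9 and 9.96 FPKM in control and 8.94, 8.46 and 9.82 FPKM with Wnt3a. Its log2 fold change was -0.21 ± 0.06 (limma adjusted p = 0.109).

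Sema6a itself had 5.93, 6.08 and 5.49 FPKM in control and 4.90, 4.90 and 5.33 FPKM with Wnt3a, without overlap (log2 fold change -0.21 ± 0.06; limma adjusted p = 0.126). In Nrp2, Epha2, Plxna2 and Sema6a the third Wnt3a library was the one nearest to control. Sema3c, the most abundant ligand, did not share the direction: it had 151, 147 and 149 FPKM in control and 159, 146 and 150 FPKM with Wnt3a, and the 95% interval of its log2 fold change ran from -0.05 to 0.11.

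These calls depended on the test. When the whole read counts behind the FPKM were tested with limma voom, 4 members passed the adjusted p for Wnt3a against control, all lower: Nrp2 (adjusted p = 0.00272), Plxna2 (0.0145), Epha2 (0.0232) and Sema6a (0.0419). Over all genes that test called 303 against 50 on the FPKM. Without the third Wnt3a library, limma on the FPKM called 3 members (Epha2, Nrp2 and Plxna2), with 291 in place of 50 of all 11451 genes called. Without the first menthol library it called Nrp2, with 43 of all genes called. Without the first or the second Wnt3a library it called no member, with 7 and 8 of all genes called. Without the third control library it called no member either, with 6 of all genes called.

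**Figure D2:**
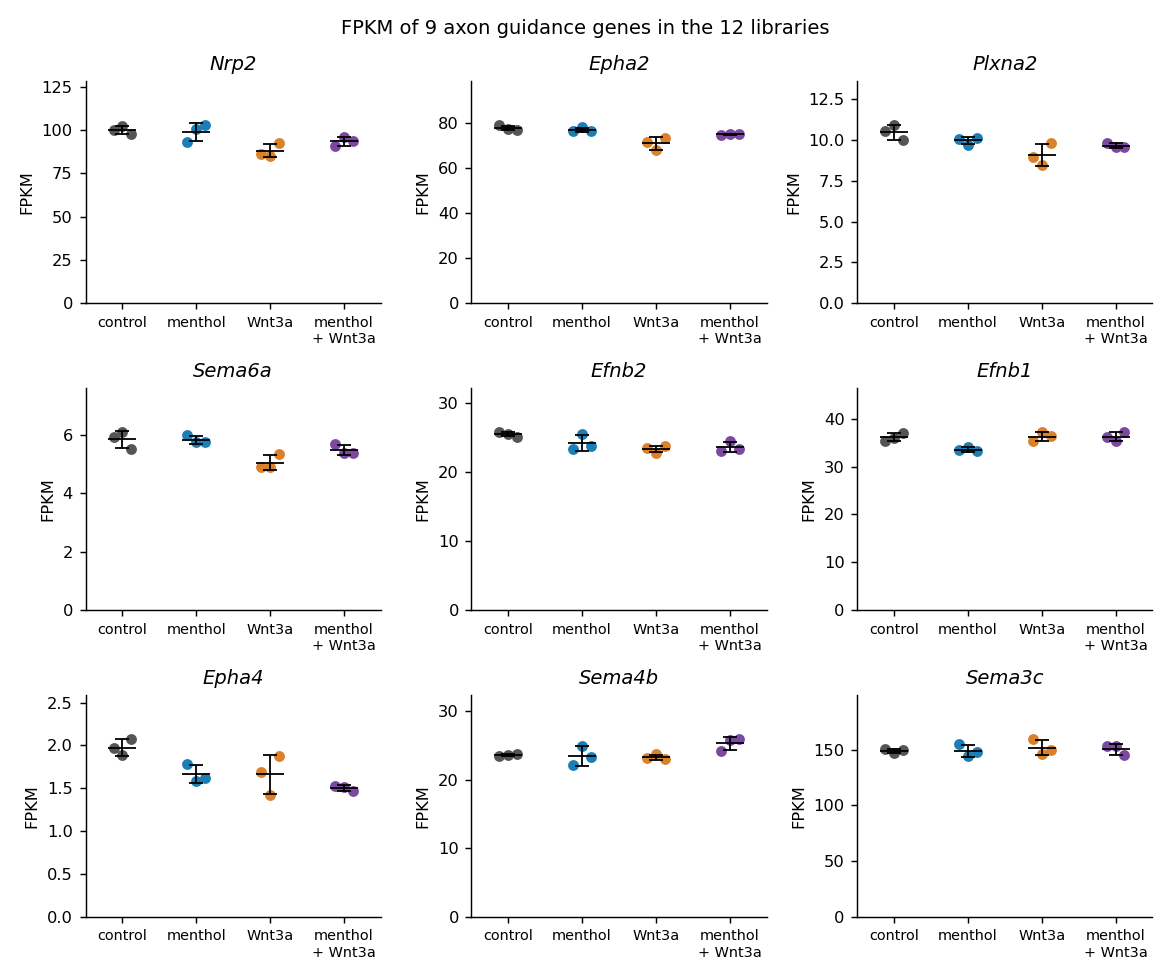
FPKM of 9 axon guidance genes in each of the 12 libraries (points), with the mean and SD of the 3 libraries of a group (bars), on axes that start at 0. The group means of Nrp2, Epha2, Plxna2, Sema6a and Efnb2 are lower with Wnt3a than in control. That of Efnb1 is lowest with menthol, and those of Sema3c differ by at most 1.02-fold.

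Wnt3a given on top of menthol was compared with menthol alone. Its group means share no library with Wnt3a against control, but all 4 groups set 1 common estimate of the spread. The menthol libraries are also those of menthol against control. None of the 34 passed the adjusted p (0.0961% of all genes did; limma voom called none of the 34 either), and 5 had an unadjusted p under 0.05 (14.7%, against 6.72% of all genes), all higher: Efnb1, Efna3, Ephb6, Sema4b and Unc5b. In this fit none of these 5 was among the 9 of Wnt3a against control, a count not made for all tested genes. Nrp2, one of the 9, also fell under this p and was lower with limma voom or with the gene length trend removed (below). Efnb1 had 36.2, 35.3 and 37.2 FPKM with both stimuli against 33.4, 34.0 and 33.2 FPKM with menthol, a log2 fold change of 0.11 ± 0.03 (limma adjusted p = 0.450). Efna3, a sparse A-type ephrin with 40 to 93 reads per library, had 0.597, 1.01 and 0.961 FPKM against 0.538, 0.440 and 0.644 FPKM with menthol (log2 fold change 0.56 ± 0.22; limma adjusted p = 0.633), and its groups overlapped. Ephb6 had 6.15, 6.20 and 5.59 FPKM against 5.13, 4.90 and 5.64 FPKM (log2 fold change 0.19 ± 0.08; limma adjusted p = 0.634).

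For the genes that led with Wnt3a alone, the intervals here included 0 by limma on the FPKM. That of Nrp2 lay below 0 with limma voom and with the gene length trend removed, without a call. Nrp2 had 90.6, 95.9 and 93.9 FPKM with both stimuli against 93.3, 101 and 103 FPKM with menthol, and its log2 fold change was -0.08 with a 95% interval from -0.17 to 0.01. Epha2 stood at 74.8, 75.0 and 75.2 FPKM against 76.4, 78.1 and 76.5 FPKM, without overlap but with an interval from -0.10 to 0.03. For Plxna2 the interval was -0.17 to 0.07 and for Sema6a -0.21 to 0.04. The difference between both Wnt3a comparisons, which is the interaction below, was not called for any of them (limma adjusted p = 0.737 for Nrp2, 0.715 for Epha2, 0.727 for Plxna2 and 0.781 for Sema6a). Of the 34 genes 10 lay below 0 in both Wnt3a comparisons, 8 above 0 in both, and 15 below 0 for Wnt3a against control and above 0 in the presence of menthol. Over all tested genes these shares were 26.1, 30.3 and 22.3%.

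With the libraries of both menthol states combined, 6 with Wnt3a were set against 6 without. None of the 34 passed the adjusted p, against 0.803% of all genes, and 10 had an unadjusted p under 0.05 (29.4%, against 14.2% of all genes, of which 871 were higher and 755 lower). The direction over all genes turned to 705 higher and 900 lower with each library centred on its median. With the gene length trend removed it was 713 and 866. Of the 10 members, Nrp2, Epha2, Sema6a, Plxna2, Efnb2, Sema3b, Epha4 and Efna5 were lower, and Efna3 and Efnb1 higher. Nrp2 came closest to a call, with a log2 fold change of -0.13 ± 0.03, which is 8.78% lower, and a limma adjusted p of 0.0512. It was called when each library was centred on its median (limma adjusted p = 0.0353), with a minimum of 1 FPKM (0.0457), with the replicate number as a block (0.0363), with limma voom on the read counts (0.00141), with the gene length trend removed (0.0225), and without the third Wnt3a library (0.0262) or the first menthol library (0.0199). The other 13 of 20 alternatives left it uncalled, with adjusted p-values up to 0.129. Epha2 was 5.72% lower with no overlap between the 6 libraries on either side (log2 fold change -0.08 ± 0.02; limma adjusted p = 0.0842), and Sema6a 9.68% lower (-0.15 ± 0.04; limma adjusted p = 0.126). Limma voom called Nrp2, Epha2, Plxna2 and Sema6a, all lower, and 279 of all genes against 92 on the FPKM.

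**Figure D3:**
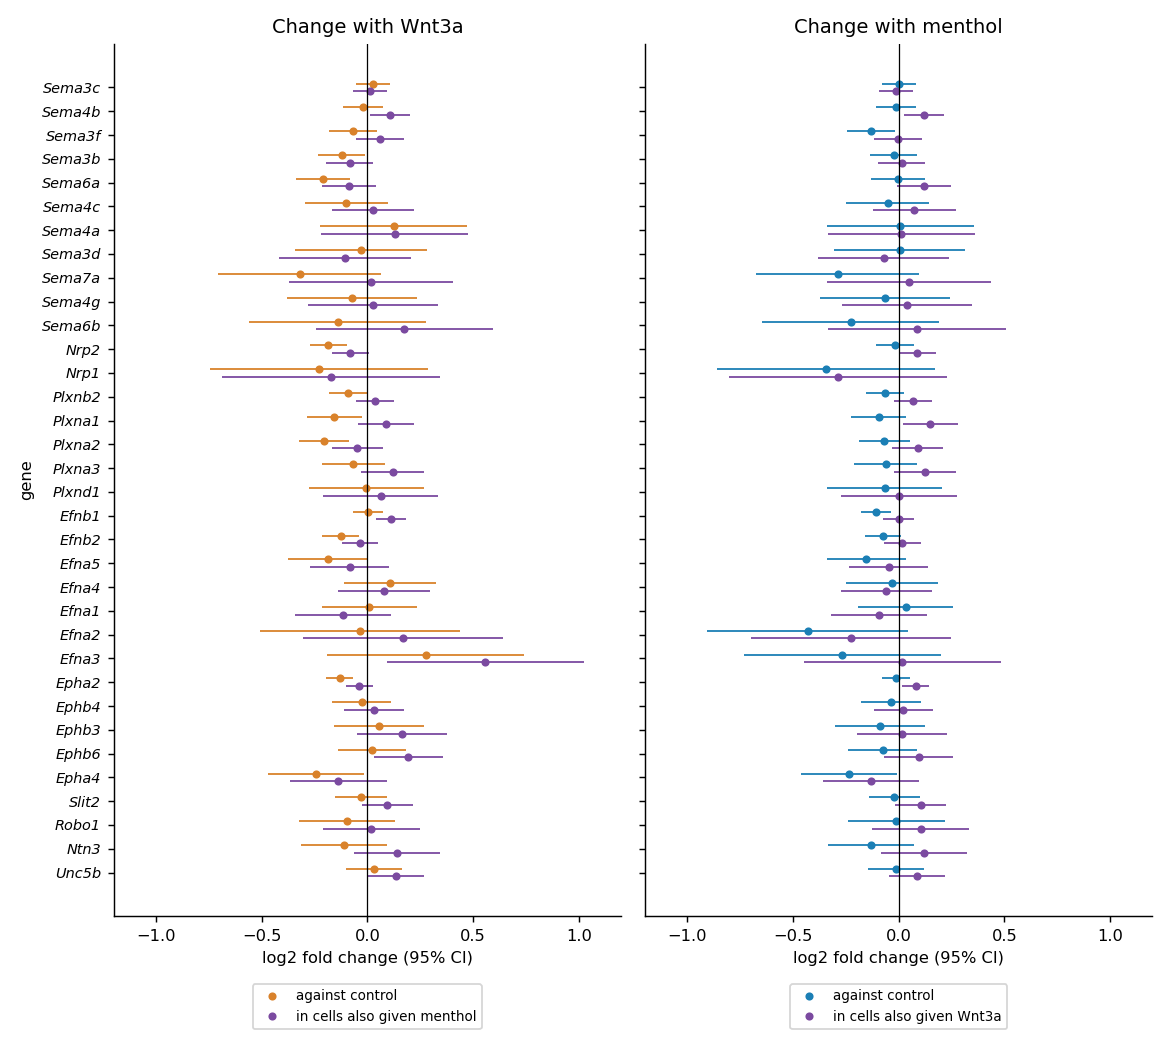
Log2 fold change and 95% confidence interval (limma) of the 34 tested axon guidance genes with Wnt3a (left) and with menthol (right), against control and in cells also given the other stimulus. With Wnt3a alone 25 of the 34 estimates lie below 0 and with menthol alone 31; with Wnt3a added to menthol 23, and with menthol added to Wnt3a 24, lie above 0.

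Menthol given on top of Wnt3a was compared with Wnt3a alone. The Wnt3a libraries are also those of Wnt3a against control, so low values in them enter both comparisons with opposite sign. Of the 34 estimates 24 lay above 0 and 10 below, with a median log2 fold change of 0.03, against 49.3% above 0 and a median of -0.0017 over all tested genes. None of the 34 passed the adjusted p (0.0524% of all genes did), nor did any by limma voom. At an unadjusted p under 0.05 there were 4 (11.8%, against 14.5% of all genes), Sema4b, Epha2, Plxna1 and Nrp2, all higher. Sema4b, a membrane-anchored semaphorin, had 24.2, 25.7 and 25.9 FPKM with both stimuli against 23.1, 23.7 and 23.0 FPKM with Wnt3a, without overlap (log2 fold change 0.12 ± 0.04; limma adjusted p = 0.255). Epha2 had a log2 fold change of 0.08 ± 0.03 (limma adjusted p = 0.259), and its values with both stimuli all lay above those with Wnt3a alone. Plxna1, a partner of both neuropilins, had 16.3, 18.4 and 18.3 FPKM against 15.8, 14.9 and 16.9 FPKM, with overlap (log2 fold change 0.15 ± 0.06; limma adjusted p = 0.289).

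When both menthol comparisons were averaged, 6 libraries against 6, none of the 34 passed the adjusted p (1.15% of all genes did), nor did any by limma voom. Only Epha4 and Efnb1 had an unadjusted p under 0.05 (5.88%, against 15.5% of all genes), both lower. Epha4 was 11.9% lower (log2 fold change -0.18 ± 0.07; limma adjusted p = 0.255) and Efnb1 3.68% lower (-0.05 ± 0.02; limma adjusted p = 0.286). The interval of Sema3c was -0.06 to 0.05.

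Both stimuli together against untreated cells left the 34 without a call (0.830% of all genes were called), with 5 at an unadjusted p under 0.05 (14.7%, against 13.5% of all genes). Epha4 was lowest of all groups here, at 1.53, 1.52 and 1.46 FPKM against 1.97, 1.88 and 2.07 FPKM in control, a log2 fold change of -0.37 ± 0.11, which is 22.7% lower (limma adjusted p = 0.130). Limma voom on the read counts called it, with an adjusted p of 0.0246, among 261 of all genes against 95 on the FPKM. Efna5 had 6.92, 5.47 and 5.60 FPKM against 7.61, 6.55 and 7.02 FPKM (log2 fold change -0.24 ± 0.09; limma adjusted p = 0.245), and Efnb2 23.1, 24.6 and 23.4 FPKM against 25.8, 25.6 and 25.2 FPKM (-0.11 ± 0.04; limma adjusted p = 0.245). Nrp2 was lower as well and Sema4b higher. This comparison shares its control libraries with those of menthol alone and Wnt3a alone.

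Whether menthol acted differently in the presence of Wnt3a was tested as an interaction. None of the 34 passed the adjusted p, as was the case for all genes (0%), also with limma voom. At an unadjusted p under 0.05 there were 4 (11.8%), Plxna1, Efnb1, Plxnb2 and Epha2, all with a positive interaction, against 6.99% of all genes (354 positive and 446 negative). Over all genes this direction turned with limma voom (507 positive and 373 negative) and with the gene length trend removed (343 and 274). The interaction of Plxna1 was 0.24 ± 0.09 on the log2 scale, that of Plxnb2 0.13 ± 0.06, and that of Efnb1 0.11 ± 0.05 (limma adjusted p = 0.715 for each). The estimate was above 0 for 30 of the 34, with a median of 0.11 against 0.00 over all tested genes.

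Gene length moved with single libraries, which were unevenly spread over the groups, and the tested axon guidance genes are long. The tested members had a median length of 4808 bases against 3153 bases over all tested genes, and 15 of the 34 were in the longest 25%, above 5197 bases. With Wnt3a alone, the median log2 fold change of all tested genes went from 0.06 in the shortest 25% to -0.04 in the longest, with menthol alone from 0.02 to -0.02, and with menthol on top of Wnt3a from -0.04 to 0.03. In the 3 control libraries the longest 25% of genes lay 0.04 above the shortest on the log2 scale (median deviation from the mean of all libraries). In the Wnt3a libraries the difference was -0.07, -0.13 and 0.02, with menthol -0.04, 0.02 and 0.03, and with both stimuli -0.03, 0.03 and 0.03. The shift with menthol was thus found in the first menthol library and not in the other 2. The part of gene length in the results was tested only by removing its trend. With the length trend of each library removed, the median of the 34 for Wnt3a alone was -0.05 in place of -0.07, that for menthol alone -0.05 in place of -0.06, and 7 in place of 9 had an unadjusted p under 0.05 for Wnt3a alone, while over all tested genes the number went from 1727 to 1425. For the interaction 2 members (Plxna1 and Efnb1) in place of 4 had an unadjusted p under 0.05, and 617 in place of 800 of all genes. Plxna1 still had the smallest p of the members for the interaction.

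**Figure D4:**
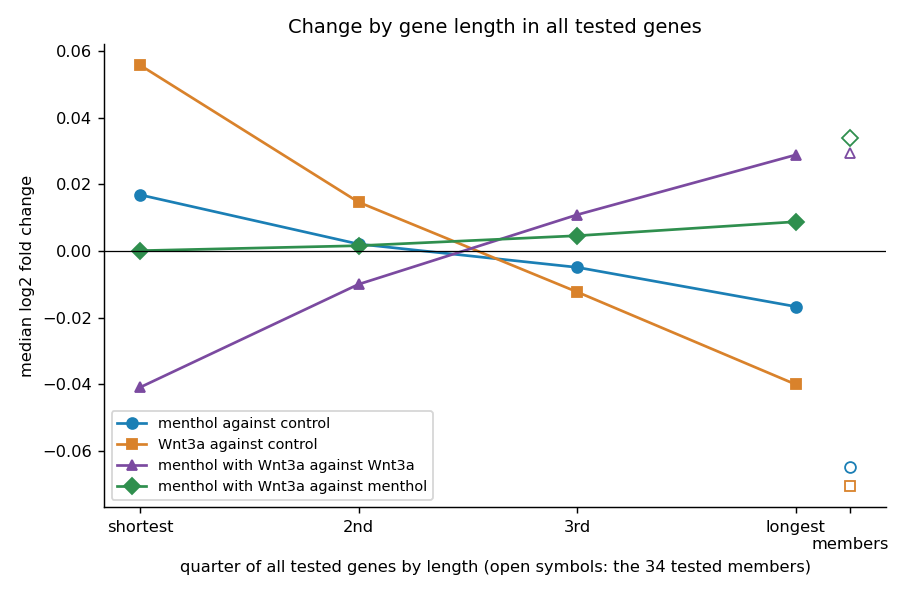
Median log2 fold change of all tested genes in 4 bins of equal size by gene length (filled symbols and lines) in 4 comparisons, with the median of the 34 tested axon guidance genes beside them (open symbols). The lines for Wnt3a alone and for menthol added to Wnt3a slope in opposite directions, from 0.06 to -0.04 and from -0.04 to 0.03.

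Across all 4 groups the members stayed close to their control level. The ratio of the highest to the lowest group mean ranged from 1.02 (Sema3c) to 1.58 (Efna3), with a median of 1.10. The coefficient of variation within groups had a median of 3.76% for the 12 genes with at least 10 FPKM, 6.31% for the 17 between 1 and 10 FPKM and 21.9% for the 5 below 1 FPKM, which are Nrp1, Efna2, Efna3, Sema6b and Sema7a. The order of the families by summed FPKM was the same in every group, with semaphorins (218 to 221 FPKM in the group means) above plexins (107 to 115 FPKM), Eph receptors (99.2 to 106 FPKM), neuropilins (88.7 to 101 FPKM), ephrins (75.7 to 80.8 FPKM), Slits (13.8 to 14.8 FPKM), Unc5 receptors (6.65 to 7.26 FPKM), netrins (3.20 to 3.52 FPKM) and Robo receptors (1.92 to 2.07 FPKM).

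Among the 32 members that were not tested, Sema3a and Sema6c are named after their values were seen. Sema3a had 0.164, 0.131 and 0.134 FPKM in control and 0.0954, 0.0569 and 0.0849 FPKM with Wnt3a, and Sema6c 0.152, 0.141 and 0.188 FPKM in control and 0.289, 0.178 and 0.273 FPKM with Wnt3a. With 24 to 81 reads per library for both genes, the Sema3a groups did not overlap and those of Sema6c did.

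Beyond the ligands and receptors above, 60 genes of the axon guidance pathway were tested, on lists of other receptors, other ligands and intracellular effectors. With both stimuli against control 2 of the 60 fell past the adjusted p (0.830% of all genes were called). Cxcl12, a chemokine that also guides axons, had 92.6, 91.3 and 89.1 FPKM in control and 81.9, 77.7 and 72.9 FPKM with both (log2 fold change -0.23 ± 0.05; limma adjusted p = 0.0359). Enah, an actin regulator of the growth cone, had 23.6, 23.4 and 24.2 FPKM in control and 21.0, 21.3 and 20.7 FPKM with both (-0.18 ± 0.04; limma adjusted p = 0.0403).

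In the other 7 comparisons none of the 60 passed the adjusted p by limma on the FPKM, and 5 to 11 had an unadjusted p under 0.05 (8.33 to 18.3%, against 6.72 to 15.5% of all tested genes). Met, the receptor of hepatocyte growth factor, and Mical2, an actin-oxidizing enzyme of plexin signalling, led for menthol alone, with log2 fold changes of -0.16 ± 0.04 and -0.34 ± 0.10 (limma adjusted p = 0.175 and 0.271). With menthol averaged, Flrt3 (-0.16 ± 0.04; limma adjusted p = 0.0824) and Met led. Enah and Cxcl12 led for Wnt3a alone (limma adjusted p = 0.102 and 0.190) and with Wnt3a averaged. Rgma, a repulsive ligand of neogenin, and Trio, an exchange factor downstream of netrin receptors, had the smallest p-values when menthol was added to Wnt3a, and were higher (0.28 ± 0.08 and 0.17 ± 0.05; limma adjusted p = 0.153 and 0.181). Rnd1, a small GTPase that binds plexins, and Cxcl12 were lower when Wnt3a was added to menthol (-0.20 ± 0.06 and -0.12 ± 0.05; limma adjusted p = 0.456 and 0.633). Dpysl2, a mediator of semaphorin signalling, and Trio led the interaction (limma adjusted p = 0.715). The 11 other receptors, 5 other ligands and 44 effectors had median log2 fold changes of -0.09, -0.05 and -0.02 for Wnt3a alone.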

How the data were processed

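RNA of ND7/23 cells was sequenced as 150 bp paired-end reads in 12 libraries of 4 groups, named from the sample labels. The authors deposited FPKM values of 21556 genes. Their processing notes name fastp, HISAT, HTSeq, R 3.2.0 and the build mRatBN7.2; other versions and strand use are not given in the sources used here. FPKM is relative to each library's total, so a rise of abundant genes lowers the rest. Whole reads were recovered from the FPKM steps for 21556 of 21556 genes (largest relative distance from a whole count 3.4e-13).

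The 66 members were chosen by symbol, and members and lists with earlier results of these data known. Limma 3.58.1 (R 4.3.3) was run on log2(FPKM + 0.1), which understates the change of low genes, for the 11451 genes with a mean of at least 0.5 FPKM, with all 4 groups in 1 fit, a variance trend and no replicate block. Genes with an adjusted p below 0.05 were called. Per comparison, members past it were named, and where fewer than 3 passed, those with the smallest unadjusted p under 0.05 up to 3 in all; other pathway genes past it, or else up to 2. The fits were tested on simulated data. Alternatives were other pseudocounts (0.01, 1) and minimums, median centring, limma voom on the reads, a replicate block, fits of the compared groups, a 2-fold limit, each library left out, and, added after seeing the data, removal of the gene length trend. Intervals have a level of 95%, and a count of 3 reads or fewer (0.0772 to 0.0813 FPKM on a gene of 1 kb) was taken as the floor, for counting error only. Tables and figures were made with Python 3.11.15.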

Additional observations from a re-analysis of the deposited data

How the results depend on the processing

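No member was called by limma on the FPKM in any of the 8 comparisons, and this held in 162 of 173 alternatives. The exceptions were as follows. Limma voom on the recovered reads called 4 members for Wnt3a against control, 4 for Wnt3a averaged and 1 for both stimuli against control, with 303, 279 and 261 of all 11451 genes called. For Wnt3a averaged, 1 member (Nrp2) was called with a minimum of 1 FPKM, with median centring, with the replicate block and with the gene length trend removed. Leaving out 1 library at a time gave 0 to 3 members for Wnt3a against control and 0 to 2 for Wnt3a averaged, the calls coming without Wnt3a replicate 3 (Epha2, Nrp2 and, against control, Plxna2) with 291 and 151 of all genes called, or without menthol replicate 1 (Nrp2), with 43 and 71, and none in the other 6 comparisons. The cause was not tested. Of 474 alternative log2 fold changes of the named members none changed sign and 456 stayed on their side of the threshold. For Wnt3a against control, Nrp2 ranged from -0.22 to -0.14 with an adjusted p from 0.00272 to 0.265, and Epha2 from -0.16 to -0.10 with 0.0232 to 0.265. The adjusted p of Epha4 for both stimuli against control ranged from 0.0246 to 0.301. The number of members with an unadjusted p under 0.05 ranged from 6 to 11 for Wnt3a against control, 8 to 11 for Wnt3a averaged, 1 to 4 for menthol against control, 0 to 4 for menthol averaged, 3 to 9 for both stimuli against control, 1 to 7 for both against Wnt3a and for both against menthol, and 1 to 8 for the interaction. Control levels stayed within 1 SD in 134 of 136 alternatives.

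The main fit did not pair the libraries by replicate number. Deviations of same-numbered libraries correlated between -0.06 and 0.15, above 0.1 in 1 of 18 pairs. Those of differently numbered libraries correlated between -0.157 and 0.115, above 0.1 in 1 of 36 pairs. These overlapping ranges cannot decide whether same-numbered libraries belong together. The replicate block gave the call of Nrp2 above and 0 members in the other 7 comparisons. Members below 1 FPKM had a median within-group variation of 21.9%, which limits what could be detected for them.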
